A study of Capra hircus with 2 samples.

Results

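Some entries of miRNA databases carry sequences that match transfer RNA (tRNA) or ribosomal RNA (rRNA). Such entries were followed in small RNA libraries of the goat endometrium, the lining of the uterus, by name: miR-7641, miR-6240, miR-4454, miR-3963, miR-3968, miR-1260, miR-1260a, miR-1260b, miR-2478 and miR-2887, with a capital R and any species prefix or end annotation. Of 587 known names, 6 met this rule: mmu-miR-6240, hsa-miR-4454, mmu-miR-3963, bta-miR-2478, ppy-miR-1260b and mmu-miR-3968. The first is called rRNA-like here and the other 5 tRNA-like. The classes came from general knowledge and were not checked against tRNA or rRNA sequences, which were not used here. A further 4 names carried the same numbers after a lower-case mir-, with the arm of the precursor written as p5 or p3. They were 3 names of mir-7641-2 and 1 of mir-2887-2, all rRNA-like, and they are given beside the 6 as names outside the set.

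The endometrium came from multiparous Xinong Saanen dairy goats aged 24 months after synchronized estrus and natural mating. The R library was made on gestational day 15, the receptive phase, and the P library on gestational day 5, the pre-receptive phase. RNA of several goats was pooled for each library. The methods describe several pools per phase and repeated sequencing, but the values used here are of 1 library per phase. The spread between goats or pools was therefore not measured, and no difference has a replicate check. The level of each name is its normalized expression (NE), in which 1 read was worth 0.860 NE (R) or 1.16 NE (P). The listed known and candidate names held 1912362 reads in R and 4050349 in P.

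A miRNA is cut from a hairpin precursor and guides silencing through its seed, bases 2 to 8. Transfer RNA carries amino acids to the ribosome and ends in CCA, which an enzyme adds after transcription, so fragments of its 3′ end carry these bases. Ribosomal RNA is the most abundant RNA of most cells. Fragments of both fall in the length range of small RNA libraries, and the authors removed reads assigned to rRNA and tRNA before the miRNAs were listed. By their counts, larger shares of the raw reads were assigned to rRNA and to tRNA in R than in P. The 6 sequences are shown because what the entries share, and which reads they could have in common, rests on them. Capitals mark the seed.

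mmu-miR-6240_R-8_1ss1CA: aCAAAGCAtcgcgaaggc
hsa-miR-4454_L+1_1ss3GA: cGAATCCGagtcacggcacca
mmu-miR-3963_R+2_1ss1TC: cGTATCCCacttctgacacca
bta-miR-2478_L+2: tCGTATCCcacttctgacacca
ppy-miR-1260b_R+2_1ss9AG: aTCCCACCgctgccaccatt
mmu-miR-3968_1ss14AT: cGAATCCCactcctgacacca

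None of the 1208 known and candidate names had the same bases at positions 2 to 8 as any of the 6, the entry itself left out. The seeds of miR-4454 and miR-3968 differed from each other in their last base. The sequence of miR-2478 was that of miR-3963 with 1 more base at the 5′ end, which moved the seed by 1 base. These were the only entries of the set that shared 12 or more bases with any other listed name, and their reads may come from the same molecules. All 6 had whole numbers of reads in both libraries, to within 0.001 of a read.

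The tRNA-like sequences shared their 3′ end. In the lines that follow capitals mark the CCA nearest to the 3′ end, the feature that the rule did not use.

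hsa-miR-4454_L+1_1ss3GA: cgaatccgagtcacggcaCCA
mmu-miR-3963_R+2_1ss1TC: cgtatcccacttctgacaCCA
bta-miR-2478_L+2: tcgtatcccacttctgacaCCA
ppy-miR-1260b_R+2_1ss9AG: atcccaccgctgccaCCAtt
mmu-miR-3968_1ss14AT: cgaatcccactcctgacaCCA

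The last bases of 4 of the 6 sequences were CCA, against 8 of all 587 known names (1.36%). In miR-1260b, 2 bases followed the CCA. Aligned at the CCA, miR-3963 and miR-3968 were equal in 19 of 21 bases and differed by T3A and T12C, with the base of miR-3963 first and positions counted from its 5′ end. The sequence of miR-4454 was further from the rest and matched miR-3963 in 14 of 21 bases. All 5 were equal over at least the last 5 bases up to the CCA.

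Every entry of the set differed from its database sequence, whereas 164 of the known names (27.9%) were equal to theirs. Substitutions were present in 5 of the 6, against 191 of 587 known names (32.5%). Counted from the 5′ end of the detected sequence with the database base first, they were C1A in miR-6240, G3A in miR-4454, T1C in miR-3963, A9G in miR-1260b and A14T in miR-3968. No substitution was present in miR-2478, which had 2 more bases at the 5′ end than its entry. The database sequences of miR-6240 and miR-3963, which differed in length from the detected ones, are shown with the substituted base in capitals.

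mmu-miR-6240 database entry: Ccaaagcatcgcgaaggcccacggcg
mmu-miR-3963 database entry: Tgtatcccacttctgacac

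The detected miR-6240 was 8 bases shorter than the 26 bases of its entry. The detected miR-3963 was 2 bases longer than the 19 bases of its entry, and these bases completed the CCA.

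All 6 entries were more abundant in the R library. The reads that the authors removed as rRNA, as tRNA or by the adapter and length filter also made up larger shares of the raw reads in R. The part of RNA quality in the higher levels of the set in R was not tested. The rRNA-like miR-6240 was the most abundant, at 1583 NE (R) and 381 NE (P), from 1841 and 328 reads. Its level in R was 4.15-fold that in P (95% exact Clopper-Pearson interval 3.69 to 4.68). It held 80.5% of the reads of the set in R and 81.8% in P, and ranked 66 among the known names in R and 98 in P.

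Among the tRNA-like entries, miR-4454 stood at 123 NE (R) and 20.9 NE (P), a ratio of 5.87 (3.59 to 10.2). The level of miR-3963 was 102 NE (R) and 19.8 NE (P), with a ratio of 5.18 (3.10 to 9.18). For miR-2478 the levels were 98.9 and 24.4 NE, and the ratio was 4.05 (2.53 to 6.79). These 3 entries lay close together in both libraries, each with over 100 reads in R and at most 21 in P.

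The lowest levels in R were those of miR-1260b and miR-3968. The former had 32.7 NE (R) and 16.3 NE (P), from 38 and 14 reads, a ratio of 2.01 (1.06 to 4.01). The latter had 25.8 NE (R) and 3.49 NE (P), from 30 and 3 reads, and its ratio of 7.39 had the widest interval of the set (2.30 to 37.9). Since reads were amplified by PCR and carried no molecular identifier, 1 molecule may give several reads, and all intervals cover counting error only. In bulk RNA, more cells of a type and more RNA per cell cannot be told apart.

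**Figure D1:**
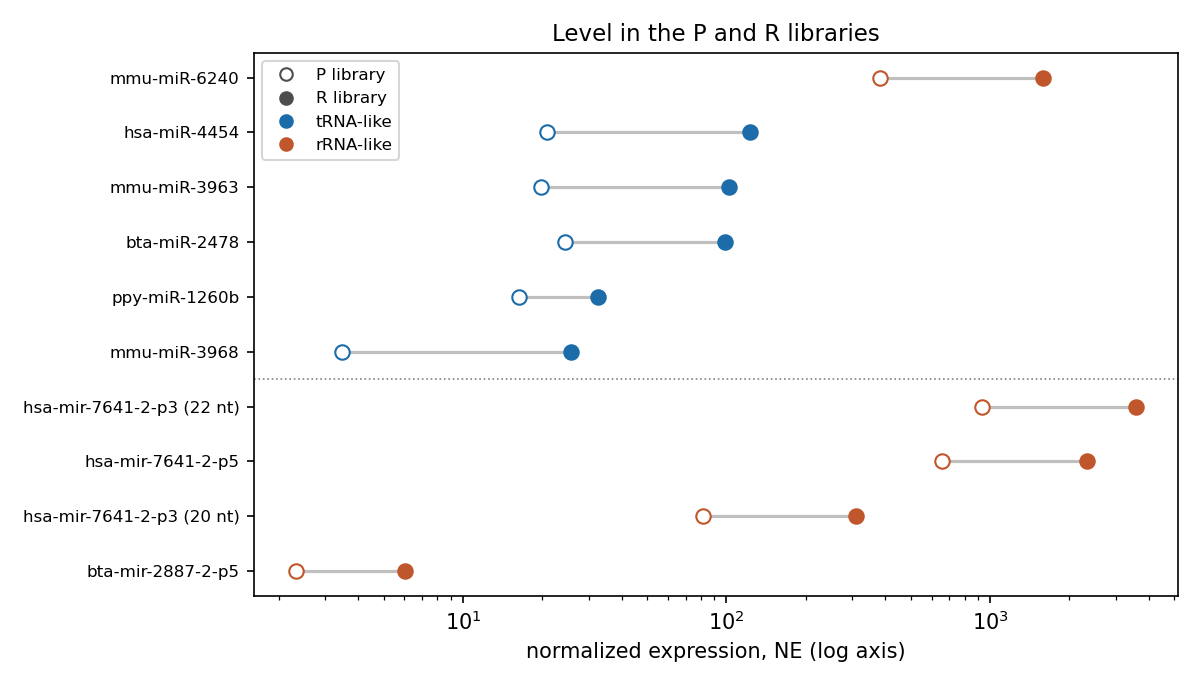
Level of each entry in the P library (open circles) and the R library (filled circles), as NE on a log axis; blue marks tRNA-like and orange rRNA-like names, and the 4 lower-case names stand under the dotted line. Each filled circle lies to the right of its open circle, and the levels in R run from 6.02 NE for the name of mir-2887-2 to 3564 NE for the 22 nt sequence of mir-7641-2-p3.

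By the fold alone, 6 of 6 entries were more than 2-fold higher in R. Of all 564 names that were detected in both libraries with at least 1 NE in 1 of them, 129 were more than 2-fold higher in R (22.9%) and 102 more than 2-fold lower. With Fisher's exact test on rounded reads added (two-sided, P-value under 0.05), 6 of 6 entries and 103 of 564 names (18.3%) were past both criteria. All 6 entries are among the names that the authors had already called different, by a fold and a P-value from the same libraries. The counts of 6 of 6 were therefore largely fixed in advance and are no separate support. Of the 296 names with at least 10 reads in both libraries, 53 were more than 2-fold higher in R (17.9%), and 5 of the 6 entries were among those 296. Fisher's exact test gave P-values of 3.18e-05 for miR-1260b and 2.58e-08 for miR-3968 (Benjamini-Hochberg adjusted over all 564 names, 0.000101 and 9.77e-08). That test compares these libraries and not the phases, and it sets reads against the clean reads, a scale on which ratios of R to P are higher than in NE. On the NE scale the exact binomial P-value was 0.0245 for miR-1260b and 5.32e-05 for miR-3968.

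In the order of the ratios of all 564 names, miR-3968 ranked 22, miR-4454 31, miR-3963 34, miR-6240 47 and miR-2478 49. With rank 129, miR-1260b was the last name past 2-fold, and its interval reached down to 1.06. The other 5 entries had a lower limit above 2-fold.

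**Figure D2:**
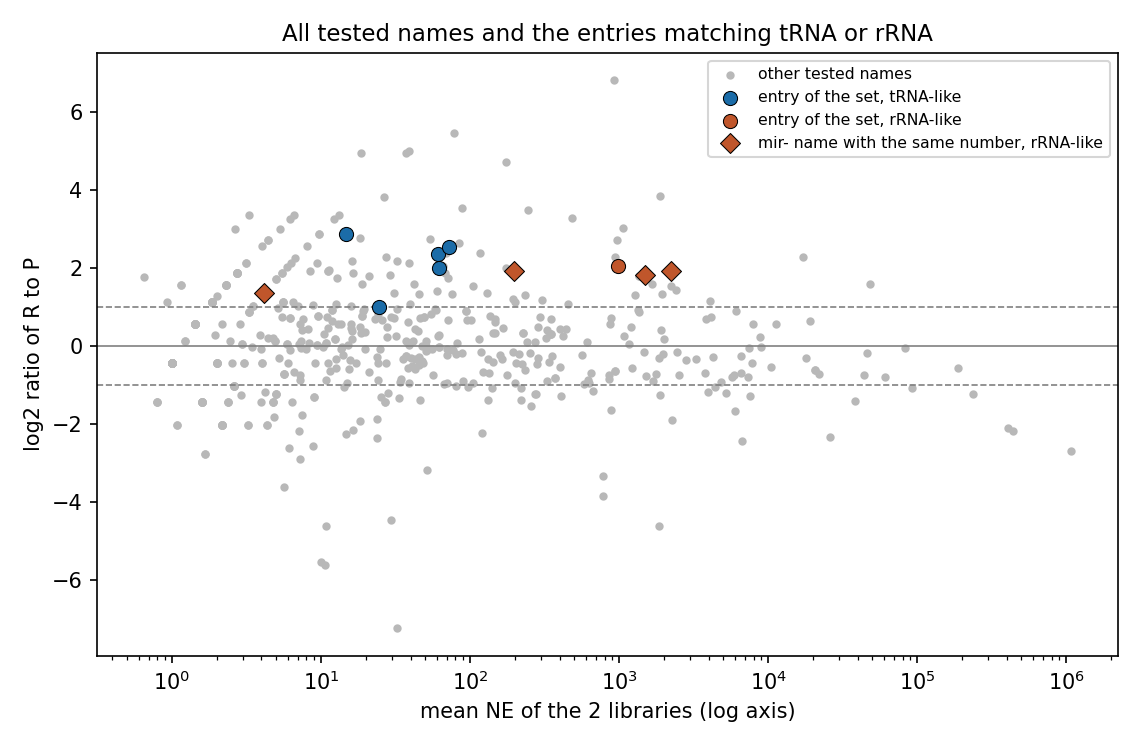
Log2 ratio of R to P against the mean NE of both libraries (log axis) for the 564 tested names; circles are the entries of the set, diamonds the lower-case names, and dashed lines mark 2-fold. The 6 entries lie between 1.00 and 2.89 on the log2 scale, and names of similar mean NE lie on both sides of 0.

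The size of each ratio depended on the scaling between the libraries. The median log2 ratio of all tested names was -0.07 in NE, 0.71 on the scale of the clean reads and 1.45 on that of the listed reads. The split of names more than 2-fold higher or lower in R was 129 to 102 in NE, 234 to 42 with the clean reads and 404 to 16 with the listed reads. Relative to the median of all names, which removes the choice of scaling, the log2 ratios ran from 1.08 for miR-1260b through 2.13 for miR-6240 to 2.96 for miR-3968.

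**Figure D3:**
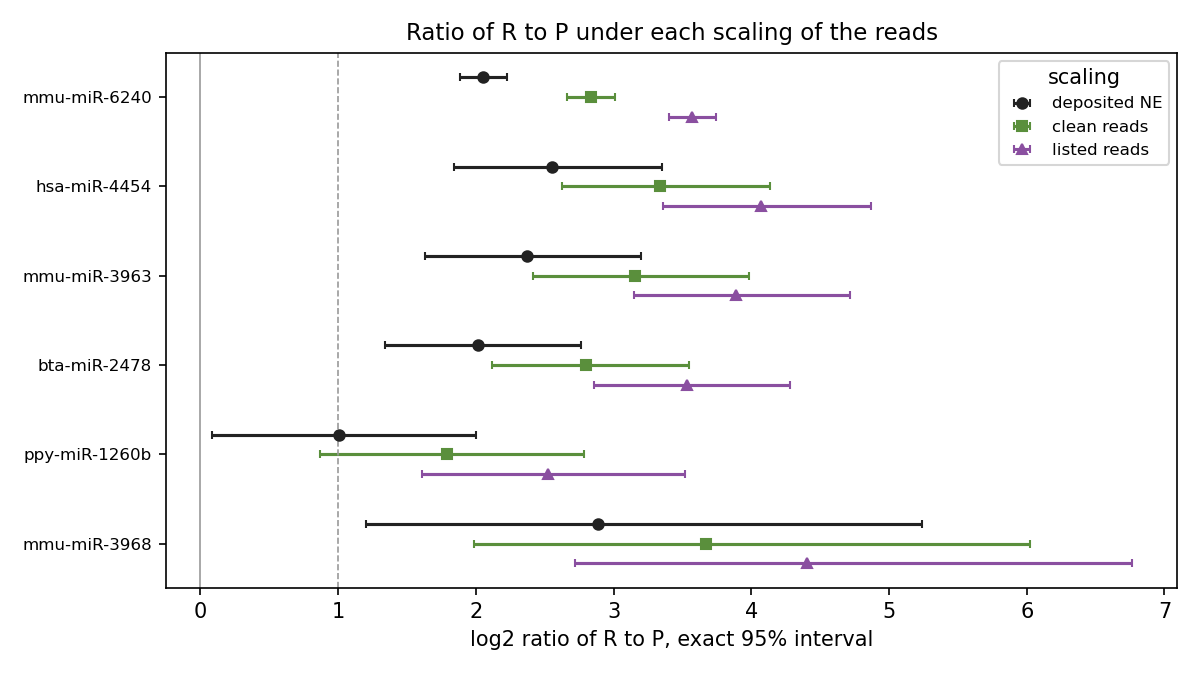
Log2 ratio of R to P of the 6 entries with exact 95% intervals, in deposited NE (circles), per clean read (squares) and per listed read (triangles); the dashed line marks 2-fold. In NE the ratios run from 1.00 to 2.89, and with the listed reads from 2.52 to 4.40.

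The tRNA-like entries were compared with the rRNA-like entry by the odds ratio of their reads, which no scaling between the libraries changes. The 5 tRNA-like entries together had 445 (R) and 73 (P) reads, against 1841 and 328 for miR-6240. The odds ratio was 1.09 (exact conditional 95% interval 0.822 to 1.45), so the pooled tRNA-like reads were not told apart from those of miR-6240. With 1 rRNA-like entry in the set, this comparison cannot speak for the classes as such. With the lower-case names added, the rRNA-like names had 9070 and 1764 reads, and the odds ratio was 1.19 (0.919 to 1.55).

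Within the set, 15 pairs of entries were compared in the same way. At the 95% level the interval left out 1 for 3 pairs, in each of which miR-1260b had the lower ratio of R to P. The odds ratio was 2.07 for miR-6240 over miR-1260b (1.02 to 3.96), 2.93 for miR-4454 over miR-1260b (1.22 to 6.85) and 2.58 for miR-3963 over miR-1260b (1.06 to 6.13). With the level adjusted over all 15 pairs, 0 intervals left out 1. Neighbours in the order of the ratios were not told apart by their counting error.

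The set was a small part of each library. It had 2286 (R) and 401 (P) reads, equal to 0.120% of the listed reads in R (0.115 to 0.125%, exact binomial) and 0.00990% in P (0.00896 to 0.0109%). Of all clean reads it held 0.0540% in R and 0.00744% in P. The tRNA-like entries made up 0.0233% of the listed reads in R and 0.00180% in P.

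Of the 3 lower-case names of mir-7641-2, 2 were more abundant than miR-6240 in both libraries, and the other stood between miR-6240 and the tRNA-like entries. The 22 nt sequence of its 3′ arm had 3564 NE (R) and 929 NE (P), a ratio of 3.84 (3.56 to 4.14). The sequence of the 5′ arm had 2335 and 657 NE and a ratio of 3.55 (3.24 to 3.90), and it shared at least 12 bases with the former. The end of this sequence was the start of the former, so the reads of both may come from the same molecules. The arms are given as the names state them and were not checked. The 20 nt sequence of the 3′ arm had 311 and 81.4 NE and a ratio of 3.82 (2.95 to 5.01). Together the 3 names had 7222 (R) and 1434 (P) reads. The odds ratio of miR-6240 over them was 1.11 (0.977 to 1.27). With 7 (R) and 2 (P) reads, the ratio of 2.59 for mir-2887-2 had an interval from 0.493 to 25.5.

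The entries were mostly shorter than the typical miRNA. Their lengths were 18 nt for miR-6240, 20 nt for miR-1260b, 21 nt for miR-4454, miR-3963 and miR-3968, and 22 nt for miR-2478. The median was 21 nt in the set and 22 nt over all known names, which ranged from 18 to 26 nt. Names of 20 or 21 nt numbered 159, of which 121 were tested and 25 were more than 2-fold higher in R (20.7%), with a median log2 ratio of 0.11. Without the 4 entries of the set in that list, 21 of 117 were past 2-fold (17.9%). Of the 48 names of 18 or 19 nt, 15 were tested, 3 were more than 2-fold higher and 5 more than 2-fold lower in R, with a median of -0.44. The 3 that were higher included miR-6240 and the name of mir-2887-2. Without miR-6240, the known names of 18 or 19 nt had 147 reads in each library, equal to 0.00770% of the listed reads in R and 0.00363% in P. Candidate names of 18 or 19 nt, with the libraries assigned as in the differential expression table, had 965 (R) and 258.5 (P) reads, equal to 0.0505% and 0.00638%. Of these, 30 were tested, 13 were more than 2-fold higher and 4 more than 2-fold lower in R, with a median log2 ratio of 0.46. By the authors' length counts, reads of 18 nt and of 19 nt were larger shares of the clean reads in R than in P. The part of short sequences as a whole in the higher levels of the set in R was not tested. GC content was 56.3% at the median of the set and 45.5% at that of the known names.

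**Figure D4:**
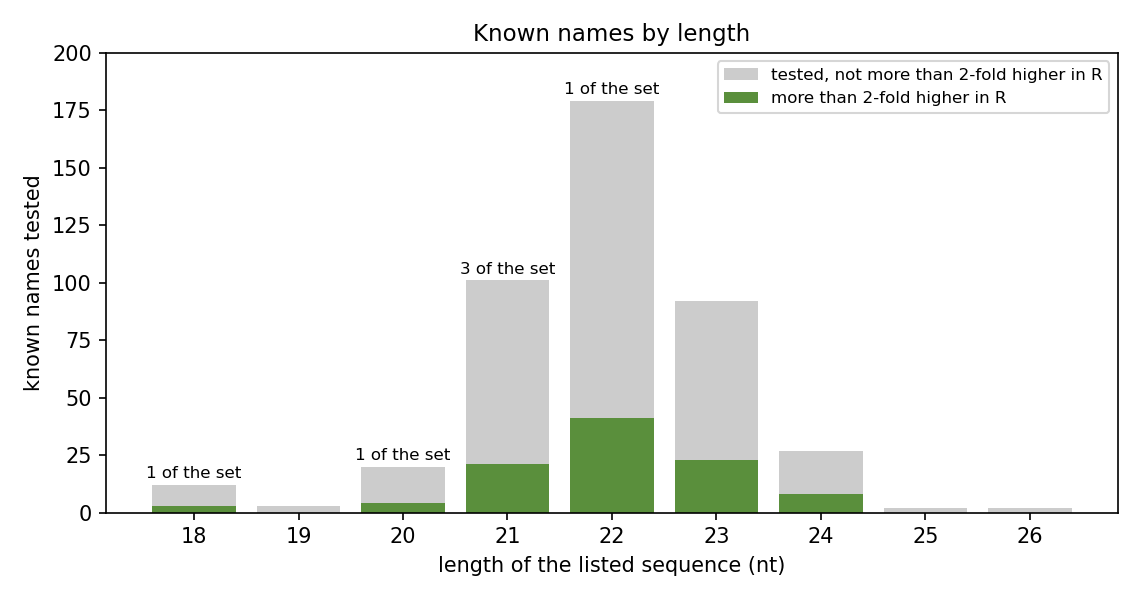
Known names tested at each sequence length (nt), with the number more than 2-fold higher in R in green at the foot of each bar; labels give the entries of the set. At 21 nt, 21 of 101 tested names were higher and 3 of these belong to the set, and at 22 nt 41 of 179 were higher.

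The 8 known names ending in CCA were described as a list. Tested in both libraries were 6 of them, and 6 were more than 2-fold higher in R, with a median log2 ratio of 2.19, beside 22.9% of all 564 names and their median of -0.07. Of these, 4 are entries of the set, whose ratios are given above, so this count and median are no separate support. The rest were oan-miR-1386 and oar-miR-668-3p, with a median log2 ratio of 1.29. Only miR-1386 of these 2 had an interval above 0. The level of miR-1386 was 87.7 NE (R) and 32.6 NE (P), a log2 ratio of 1.43 (0.81 to 2.09). For miR-668-3p the counts were 3 and 1 reads, and the log2 ratio of 1.15 had an interval from -2.49 to 6.86. The names ssc-mir-4335-p3 and bta-miR-484 had 2 reads and 1 read in R and 0 in P, under the limit of 3 reads, and no fold is given.

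MicroRNA lists of other cell types were set beside these values. The list known from epithelium (miR-200a, miR-200b, miR-200c, miR-141 and miR-429) had 7 names, with a summed level of 32079.5 NE in R and 6406 NE in P. For 6 of the 7 the exact interval of the ratio lay above 1 in favour of R, in NE and on the scales of the clean and the listed reads. Its most abundant name, miR-141-3p, had 28337 and 5791 NE, and miR-200b was not among the known names. The list known from striated muscle (miR-1, miR-133, miR-206, miR-208 and miR-499) had 7 names, with 211 NE (R) and 3796 NE (P) in sum. The interval lay on the side of P for 5 of the 7 in NE and for 4 on either other scale, and with the listed reads it lay on the side of R for miR-499a-5p. Its most abundant name, miR-133, had 145 and 3558 NE, miR-208a was listed at 0 in R, and miR-206 was not among the known names. The part of tissue composition in the higher levels of the set in R was not tested.

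Predicted targets were listed by the authors for 142 names and 7608 gene identifiers, and all 6 entries were among these names. The authors predicted targets only for names that they had called different between the libraries. The comparisons that follow are with those names and not with all known names. The number of targets was 961 for miR-1260b, 731 for miR-6240, 577 for miR-3968, 294 for miR-3963, 183 for miR-4454 and 93 for miR-2478. The median over the 142 names was 578.5, with a range from 81 to 1331. The entries miR-3963 and miR-2478 shared 24 targets. These were 25.8% of the targets of miR-2478, beside the 3.86% of all identifiers that were targets of miR-3963, and 8.16% of the targets of miR-3963, beside the 1.22% that were targets of miR-2478. The largest overlap in number was that of miR-6240 and miR-1260b, 128 targets, equal to 17.5% and 13.3% of their lists. Of all identifiers, 12.6% were targets of miR-1260b and 9.61% were targets of miR-6240, and these were the longest lists of the set. Any entry of the set was paired with 2243 identifiers (29.5%), and 1756 of these were paired with 1 entry alone.

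**Figure D5:**
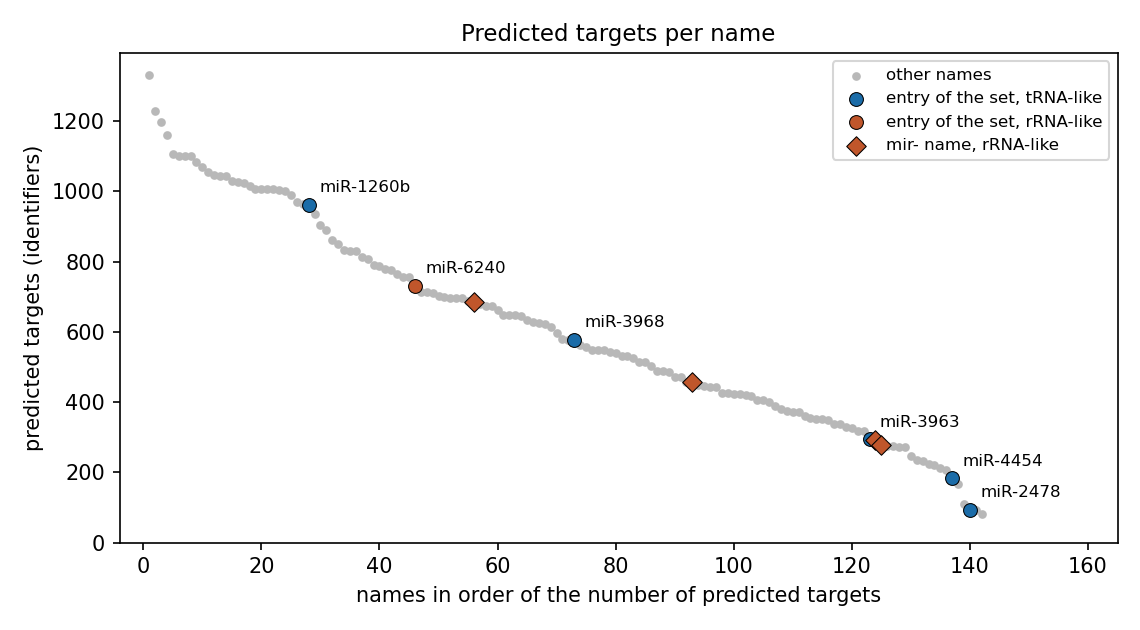
Number of predicted targets of the 142 names, in descending order; circles are the entries of the set and diamonds the lower-case names. The entries are spread from 961 targets for miR-1260b, rank 28, to 93 for miR-2478, rank 140.

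Each entry was listed for 1 to 5 species, and no count over the other known names is set beside this. In the conservation table of 23 species, miR-6240, miR-3963 and miR-3968 were listed for mouse alone, miR-4454 for human alone and miR-2478 for cow alone. The entry of miR-1260b was listed for 5 species, all primates.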

How the data were processed

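Known names, candidate names, conservation and target tables were used, each deposited by the authors. Reads were filtered by the authors, who removed rRNA, tRNA and other RNA families, matched the rest to database precursors, and deposited a normalized signal per name and library (NE). The deposited values were whole or simple fractions of 1 worth of a read per library (85.2% of known names whole in R and 87.5% in P), as values with 1 size factor per library are. A read was worth less in R than in P, although R had fewer clean reads, so the size factors were not the clean reads that the methods state. The candidate table carries P and R labels that are the reverse of those in the differential expression table, and the latter were followed: 70 of 70 shared candidates then had equal values. That table also holds the authors' fold ratios and P-values, which were not used. In the target table only the pairs of name and gene identifier were used, and the other identifiers in it were left out.

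Reads were NE divided by the worth of 1 read, and a repeated name was counted once for NE with its reads summed. The entries were found by the number in the name. Every entry, the lower-case names with the same numbers, the known names ending in CCA and the names sharing 12 bases with an entry were named. The members and lists were chosen with earlier results of these data known. The epithelium and muscle lists, and their counts by scaling, were added from general knowledge after the values were seen. Ratios have exact Clopper-Pearson intervals, and Fisher's exact test, which the methods name, was run on rounded reads against the clean reads, with Benjamini-Hochberg adjustment. The formula printed in the methods takes NE in place of reads and was not used, so these P-values are not those of the study. A count of 3 reads, the limit for a count of 0, equals 2.58 NE (R) and 3.49 NE (P). The statistics were tested on simulated data. Computation used scipy 1.17.1 with pandas 2.3.3 and numpy 2.4.6 under Python 3.11.15; plots were drawn by matplotlib 3.10.9. Other scalings, filters, folds, tests and ways of grouping were tried.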

Additional observations from a re-analysis of the deposited data

How the results depend on the processing

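Of 26 alternative values of the ratios of the 6 entries (other scalings, the median set to 0, a pseudocount of 1 NE, and miR-3963 merged with miR-2478), 26 were above 0 on the log2 scale and 25 above 1. The exception was miR-1260b with the pseudocount, at 0.96, and the cause was the pseudocount itself. The number of entries past the fold was 5 or 6 under each alternative, and 10 with names in any case, since 4 names are added. The share of all names more than 2-fold higher in R was 41.5% with the clean reads, 71.6% with the listed reads, 31.6% at a fold of 1.5, 8.87% at a fold of 4, 17.9% with at least 10 reads in both libraries and 16.9% for known names with at least 10 reads. The odds ratio of the classes lay between 0.978 and 1.23 in the alternatives run, and the ratio of the class medians was 1.25. Without miR-6240 no rRNA-like entry of the set was left. With the lower-case names in its place the odds ratio was 1.21 (0.937 to 1.58). Without miR-6240 the set held 0.0233% of the listed reads in R and 0.00180% in P, and over all clean reads the full set held 0.0540% and 0.00744%.

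Among the names ending in CCA, 2 were past 2-fold with the entries of the set left out. Among those of 18 or 19 nt, 10 were past it with the listed reads and 1 with at least 10 reads in both libraries. Among those of 20 or 21 nt, 55 were past it with the clean reads, 87 with the listed reads and 12 with at least 10 reads. The alternatives for these lists, the candidates of 18 or 19 nt, the known names with at least 10 reads, the candidate labels as written and the classes in any case without miR-6240 were chosen after seeing the data. The cause was not tested where the scaling changed a count. With 3 reads of miR-3968 in P, the interval of its ratio ran from 2.30 to 37.9. No paired analysis was possible because each phase has 1 library.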
